A study of Homo sapiens with 8 samples.

Results

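ATP-dependent chromatin remodellers are complexes that slide, eject or exchange nucleosomes with the energy of ATP, and the 49 genes described here encode 29 subunits of the SWI/SNF (BAF) complexes and 20 ATPases or subunits of the ISWI, CHD, INO80 and related families. They were chosen by name, from subunits and ATPases of these families, with earlier results of these data known. The count tables hold 63677 annotated genes, and 47 of the 49 had enough reads to be tested in each line. The neuronal subunit ACTL6B had 1 read in all 8 libraries together, and the ISWI ATPase SMARCA1 had 0 reads in every DND-41 library and 2 to 3 in each MOLT-4 library, so neither was tested.

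RNA was sequenced from DND-41 and MOLT-4, established human cell lines of T-cell acute lymphoblastic leukaemia, after 3 h in 100 nM ACBI-1 or in DMSO, its solvent. The 4 groups (DND-41 with ACBI-1, DND-41 with DMSO, MOLT-4 with ACBI-1, MOLT-4 with DMSO) held 2 libraries each, and the labels name no genetic change in any of them. Both lines were grown in RPMI-1640 medium with serum. Whether the paired libraries of a group are separate cultures is not stated. The p-values therefore cover the spread from library to library, and that spread may be technical only.

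ACBI-1 is a bifunctional small molecule that ties the VHL ubiquitin ligase to the bromodomains of SMARCA2, SMARCA4 and PBRM1 and so marks these proteins for degradation. SMARCA2 and SMARCA4 are the alternative ATPases of SWI/SNF, and each complex holds only 1 of them. Around a shared core, canonical BAF carries ARID1A or ARID1B and a DPF protein, PBAF carries PBRM1, ARID2, PHF10 and BRD7, and the non-canonical form (ncBAF) carries BRD9 with GLTSCR1 or GLTSCR1L. NuRD, in which CHD4 or CHD3 is the ATPase, joins remodelling to histone deacetylation and is often described as opposing SWI/SNF, and CHD4 is needed for T-cell development. RNA was measured here and protein was not.

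Library totals lay between 19867779 and 20082524 counts, and the 49 genes took 0.961% to 1.38% of them, with ACTB as the most abundant. Mitochondrial genes took 13.3% to 20.04%. The 2 DND-41 ACBI-1 libraries stood farther apart than any other pair, with a mean chi-square of 17.2 per gene against 3.19 to 5.58 in the other 3 groups and mitochondrial shares of 17.4% and 13.3%. The part of this spread in the DND-41 results was not tested, and each DND-41 call is given below with these libraries left out in turn. All 6 T-lineage markers (CD3D, CD3E, CD3G, CD7, CD5, CD2) had reads in every group, TLX3 marked the DND-41 libraries and TAL1 and LMO2 the MOLT-4 libraries. CD5 was low in DND-41, with 23 to 44 counts against 2042 to 3052 in MOLT-4. CD7 had 40095 to 45683 counts in DND-41 and 1536 to 1831 in MOLT-4. The 7 myeloid and erythroid markers summed to between 0.241 and 0.62 CPM (counts scaled to a common library size). Of the 6 B-cell markers MS4A1 was at 0 counts in every library, and PAX5 and CD22 at 2 or fewer, while CD79A had 31024 to 35375 counts and EBF1 207 to 272 in DND-41. Of the 8 epithelial and fibroblast markers PDGFRB stood out in DND-41, with 676 to 1160 counts. In the DND-41 DMSO replicate 2, 25 genes specific to MOLT-4 had a median of 0.566% of their MOLT-4 level.

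The RefSeq promoter table (GRCh38.p14) has windows for 39 of the 49 genes. The 250 bases before the start are shown for CHD4, GLTSCR1L, ARID1A and CHD1, which are 4 of the 6 members that passed the test after ACBI-1 in the results that follow. They lie at chr12:6606452-6606701 (minus strand), chr6:42746737-42746986 (plus), chr1:26695765-26696014 (plus) and chr5:98929008-98929257 (minus), and each is written 5′ to 3′ in the direction of transcription. Capitals mark the words searched on both strands: the GC box GGGCGG, the CCAAT box, the ETS core CCGGAAG, the cyclic-AMP response element TGACGTCA, the E-box CACGTG and the TATA word TATAAA.
CHD4: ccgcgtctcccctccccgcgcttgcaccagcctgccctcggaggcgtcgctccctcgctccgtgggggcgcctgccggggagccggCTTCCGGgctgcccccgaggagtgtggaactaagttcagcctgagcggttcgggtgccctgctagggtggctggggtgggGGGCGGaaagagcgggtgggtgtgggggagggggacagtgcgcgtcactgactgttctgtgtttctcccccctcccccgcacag
GLTSCR1L: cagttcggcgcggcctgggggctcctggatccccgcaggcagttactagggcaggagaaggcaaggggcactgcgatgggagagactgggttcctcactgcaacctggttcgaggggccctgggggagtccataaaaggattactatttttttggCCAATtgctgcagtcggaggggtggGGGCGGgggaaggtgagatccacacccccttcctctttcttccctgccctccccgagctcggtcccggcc
ARID1A: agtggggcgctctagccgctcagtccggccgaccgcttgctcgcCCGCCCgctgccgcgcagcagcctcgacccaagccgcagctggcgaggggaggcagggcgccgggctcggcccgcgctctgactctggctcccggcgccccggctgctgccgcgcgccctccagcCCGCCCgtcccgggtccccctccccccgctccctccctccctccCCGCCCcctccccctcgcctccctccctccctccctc
CHD1: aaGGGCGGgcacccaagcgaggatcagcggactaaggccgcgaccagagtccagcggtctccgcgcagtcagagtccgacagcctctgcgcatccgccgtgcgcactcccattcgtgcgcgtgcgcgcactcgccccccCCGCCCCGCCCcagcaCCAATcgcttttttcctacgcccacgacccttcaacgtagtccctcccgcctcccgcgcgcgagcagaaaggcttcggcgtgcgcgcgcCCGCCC
GLTSCR1L has 3 starts in the table and the first is shown, and the counts do not tell which one these cells use.

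The CHD4 window holds 1 ETS core, a word found in 8.52% of all 35116 windows of that length, and 1 GC box, found in 42.6%. The GLTSCR1L window holds 1 GC box and 1 CCAAT box, the latter found in 32.0% of windows. ARID1A has 3 GC boxes, and CHD1 has 4 with 1 CCAAT box. None of the 4 windows holds TGACGTCA, CACGTG or TATAAA. All 4 windows are rich in G and C, at 72.0% (CHD4), 63.2% (GLTSCR1L), 80.4% (ARID1A) and 70.8% (CHD1), against a median of 58.0% over all windows. GLTSCR1L start 2 and start 3, which are not shown, stood at 73.2% and 48.4%, and start 3 holds 1 TATA word. No window is shown for SMARCD3 or CHD7. SMARCD3 start 1 and start 2 hold none of the words, and its start 3 holds 2 GC boxes. These matches describe the letters only.

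The first comparison was of the transcripts of the degrader's named targets, and of their partner subunits, between ACBI-1 and DMSO at 3 h. The targets did not pass the test in either line (edgeR quasi-likelihood test, Benjamini-Hochberg adjusted p under 5% over all genes). SMARCA4, the main ATPase in both lines, stood at 444.5 and 492.8 CPM with ACBI-1 and at 448.6 and 459.7 CPM with DMSO in DND-41, and at 617.7 and 555.7 against 584 and 541.3 CPM in MOLT-4. Its groups overlapped in both lines, with log2 differences of 0.06 ± 0.07 (SE; 95% interval -0.09 to 0.21) and 0.05 ± 0.07 (-0.08 to 0.19).

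SMARCA2 stood at 52.48 and 55.38 CPM with ACBI-1 against 55.64 and 64.04 CPM with DMSO in DND-41. In MOLT-4 its values were 26.03 and 26.57 against 28.25 and 26.68 CPM. Both ACBI-1 libraries were below both DMSO libraries in each line, by small margins. The log2 differences were -0.13 ± 0.08 (95% interval -0.29 to 0.02, adjusted p = 0.336, edgeR) and -0.07 ± 0.09 (-0.25 to 0.10, adjusted p = 0.699).

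PBRM1, the bromodomain-rich subunit of PBAF, stood at 135.9 and 139.5 CPM with ACBI-1 and 133.6 and 134 CPM with DMSO in DND-41, a log2 difference of 0.06 ± 0.07. In MOLT-4 it was at 138.6 and 141.4 against 150.9 and 153.3 CPM, with the groups apart and a log2 difference of -0.13 ± 0.06 that did not pass the test (adjusted p = 0.203, edgeR). VHL, the ligase gene that the degrader relies on, differed by -0.01 ± 0.07 in DND-41 and -0.02 ± 0.07 in MOLT-4. None of the 5 VHL ligase genes tested passed in either line, beside 9.83% (DND-41) and 10.8% (MOLT-4) of all genes tested.

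**Figure D1:**
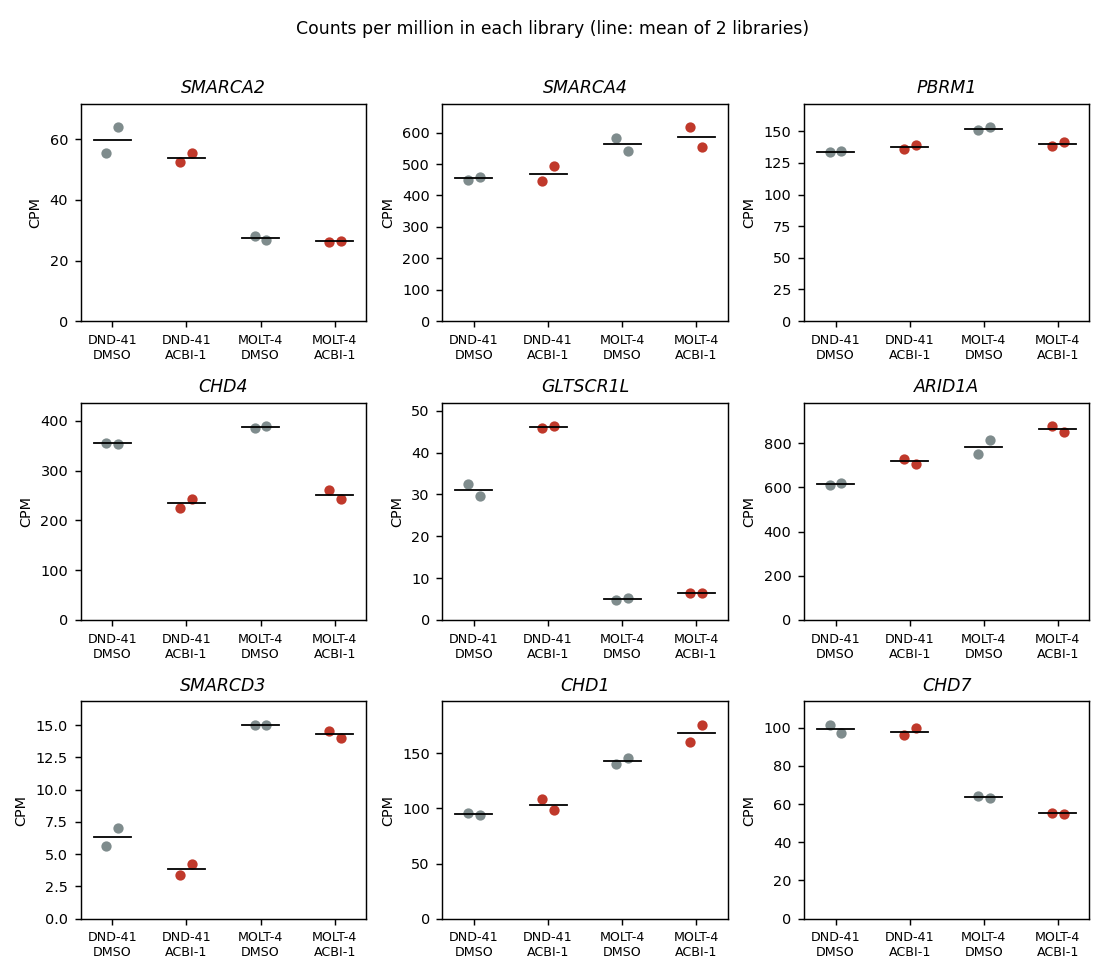
CPM (vertical axis) of the degrader's 3 targets and of the 6 genes that changed, in each library (points), with the mean of the 2 libraries of a group (line). CHD4 is lower in both ACBI-1 libraries of each line, while the targets differ little between treatments.

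In DND-41, 4 of the 47 tested genes passed the test, 2 higher and 2 lower, which is 8.51% beside 9.83% of all 14019 genes tested (3.78% higher and 6.05% lower). The share was near that of all genes. The median log2 difference was -0.01 over the 47 and 0.00 (0.0029) over all genes. GLTSCR1L and ARID1A rose, and CHD4 and SMARCD3 fell. No member was called with a 2-fold difference, beside 0.706% of all genes tested. Without a filter on low counts no member was called in DND-41, beside 0.00765% of all genes. Against a minimum fold of 1.5 none was called in either line, beside 0.25% of all genes in DND-41 and 0.511% in MOLT-4.

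CHD4, the NuRD ATPase and helicase, stood at 225.9 and 242.7 CPM with ACBI-1 and at 356.2 and 353.9 CPM with DMSO in DND-41. The groups were well apart, with a log2 difference of -0.58 ± 0.07 (adjusted p = 2.34e-07, edgeR). CHD4 fell by a like amount in MOLT-4, from 385.6 and 390.1 CPM with DMSO to 260.3 and 242.3 CPM with ACBI-1, a log2 difference of -0.63 ± 0.06 (adjusted p = 4.56e-08). It was the only member to pass in both lines. The difference between its responses was -0.03 ± 0.09 (MOLT-4 minus DND-41; 95% interval -0.22 to 0.16), and no difference between the lines was detected (adjusted p = 0.998, edgeR). In bulk RNA, fewer cells with a transcript and less of it per cell cannot be told apart.

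When 1 library was left out, the remaining pair alone gave the spread, and the lone library was assumed to vary like it. How many genes such fits called differed widely, and why was not tested. Few or no genes of the whole table passed without the DND-41 ACBI-1 replicate 1 or without either MOLT-4 ACBI-1 replicate. A call lost in those 3 fits therefore says little about a single gene, and the log2 difference is what can be compared. For CHD4 it was -0.54 (adjusted p = 0.094, edgeR) in that DND-41 fit, and -0.69 and -0.57 (adjusted p = 0.271 and 0.119) in the MOLT-4 fits. CHD4 passed without each of the other 5 libraries of its lines, at -0.63 to -0.58 in DND-41 and -0.64 to -0.63 in MOLT-4. In the authors' deposited tables CHD4 had a log2 fold change of -0.58 in DND-41 (adjusted p = 1.42e-13). For MOLT-4 the authors' deposited table gives -0.63 once its sign is turned to ACBI-1 minus DMSO (adjusted p = 1.16e-18).

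GLTSCR1L, also named BICRAL, is an ncBAF subunit and an alternative to GLTSCR1. In DND-41 it rose to 45.86 and 46.37 CPM with ACBI-1 from 32.38 and 29.71 CPM with DMSO, a log2 difference of 0.59 ± 0.08 (adjusted p = 4.03e-06, edgeR). In MOLT-4 it was scarce, at 6.406 and 6.373 CPM with ACBI-1 and 4.691 and 5.221 CPM with DMSO. There both ACBI-1 libraries were above both DMSO libraries, but the log2 difference of 0.36 ± 0.16 did not pass (adjusted p = 0.165). The responses of the lines differed by -0.20 ± 0.16 (MOLT-4 minus DND-41; adjusted p = 0.862). In DND-41 the difference in GLTSCR1L was 0.59 (adjusted p = 0.113) with ACBI-1 replicate 1 left out, where 3 genes in all passed. It was 0.58 (adjusted p = 0.0563) with ACBI-1 replicate 2 left out, where 177 genes passed.

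Its paralogue GLTSCR1 (BICRA) did not pass, at -0.21 ± 0.08 in DND-41 (adjusted p = 0.0967, edgeR) and -0.17 ± 0.07 in MOLT-4 (adjusted p = 0.112). BRD9, the bromodomain subunit of ncBAF, differed by -0.03 ± 0.07 and 0.06 ± 0.06. Per kilobase of transcript, GLTSCR1L made up 29.2% ± 0.641 (SD, n = 2) of the summed level of the pair in DND-41 with DMSO and 42.0% ± 3.48 with ACBI-1. In MOLT-4 the shares were 5.22% ± 0.152 and 7.37% ± 0.177. The shares of the ACBI-1 libraries lay above those of the DMSO libraries in both lines.

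ARID1A, the largest subunit particular to canonical BAF, stood at 728.4 and 707 CPM with ACBI-1 and 609.6 and 619.6 CPM with DMSO in DND-41. Its log2 difference was 0.24 ± 0.08 (adjusted p = 0.0389, edgeR), close to the threshold. In MOLT-4 it stood at 879.1 and 852.4 against 750.7 and 816.9 CPM, 0.13 ± 0.06, which did not pass (adjusted p = 0.211). With 1 of the 4 DND-41 libraries left out, ARID1A differed by 0.21 to 0.26 and did not pass (adjusted p between 0.0785 and 0.518), in fits that called 3 to 632 genes. With scaling by total counts it did not pass either (0.0576). Its alternative ARID1B differed by -0.02 ± 0.07 and -0.01 ± 0.06.

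SMARCD3 (BAF60C), the least abundant of the SMARCD paralogues, had 69 and 88 counts with ACBI-1 and 115 and 141 with DMSO in DND-41, or 3.388 and 4.242 against 5.667 and 7.005 CPM. Its log2 difference was -0.71 ± 0.18 (adjusted p = 0.00718, edgeR), the largest fall among the 47 and the one with the fewest reads behind it. DESeq2 did not call SMARCD3 (adjusted p = 0.127), and it did not pass, at -0.88 and -0.56, without ACBI-1 replicate 2 (0.119; 177 genes passed) and without DMSO replicate 2 (0.185; 632 genes passed). Without ACBI-1 replicate 1, where 3 genes passed in all, it was at -0.565 (0.27). In MOLT-4 SMARCD3 was at 14.58 and 13.98 CPM with ACBI-1 and 15 and 15.04 CPM with DMSO, -0.08 ± 0.11.

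In MOLT-4, 3 of the 47 passed (CHD4 and CHD7 lower, CHD1 higher), 6.38% beside 10.8% of all 14470 genes tested (3.9% higher and 6.94% lower). All 3 belong to the CHD family and none of the 28 SWI/SNF subunits tested was called there, with 8 (28.6%) at an unadjusted p under 0.05 in edgeR, beside 22.6% of all genes, and 0 called by DESeq2. The median log2 difference was -0.02 over the 47 and 0.00 (-0.001) over all genes. CHD1, a remodeller that binds histone H3 methylated at lysine 4 in active genes, stood at 160.1 and 175.9 CPM with ACBI-1 and 139.8 and 145.4 CPM with DMSO. Its log2 difference was 0.23 ± 0.06 (adjusted p = 0.0189, edgeR).

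CHD1 did not pass without DMSO replicate 1 (0.20, adjusted p = 0.0969, edgeR), where 1430 genes passed. Without ACBI-1 replicate 1 or 2, where 0 genes of the whole table passed, it was at 0.295 and 0.17 (adjusted p = 0.312 and 0.335). In DND-41 CHD1 was at 108.5 and 98.19 CPM against 95.9 and 94 CPM, 0.14 ± 0.07, and did not pass (adjusted p = 0.255). CHD7 stood at 55.43 and 54.99 CPM with ACBI-1 and 64.49 and 63.38 CPM with DMSO in MOLT-4. Its log2 difference was -0.22 ± 0.07 (adjusted p = 0.0359, edgeR). CHD7 was not called by DESeq2 (0.221), with scaling by total counts (0.0886) or without DMSO replicate 1 (-0.21; 0.136) or 2 (-0.23; 0.087). Without either ACBI-1 replicate, where 0 genes in all passed, CHD7 was at -0.23 and -0.20 (0.365 and 0.297). In DND-41 CHD7 was at 95.98 and 99.87 against 101.6 and 97.03 CPM, with overlapping groups.

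The remaining CHD ATPases did not pass in either line. CHD3, the alternative NuRD ATPase, differed by -0.03 ± 0.07 in DND-41 and 0.02 ± 0.07 in MOLT-4. CHD2 was higher in both ACBI-1 libraries than in both DMSO libraries of each line, by 0.19 ± 0.07 and 0.16 ± 0.06, without passing (adjusted p = 0.0767 and 0.116, edgeR). Per kilobase, CHD3 took 31.5% ± 1.61 (SD, n = 2) of the CHD3 and CHD4 sum in DND-41 with DMSO and 40.3% ± 0.862 with ACBI-1, and 10.4% ± 0.362 and 15.5% ± 1.11 in MOLT-4.

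With a smooth trend on GC content and transcript length removed from each library, an alternative chosen after seeing the data, 6 members were called in DND-41 (3 higher, 3 lower; CHD2 and CHD6 were added) and 4 in MOLT-4 (3 higher, 1 lower). Of all genes 12.7% and 13.5% were then called. In MOLT-4 CHD2 (0.20, adjusted p = 0.0171, edgeR) and ARID1A (0.20, adjusted p = 0.0151) were then called and CHD7 (adjusted p = 0.0534) was not.

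**Figure D2:**
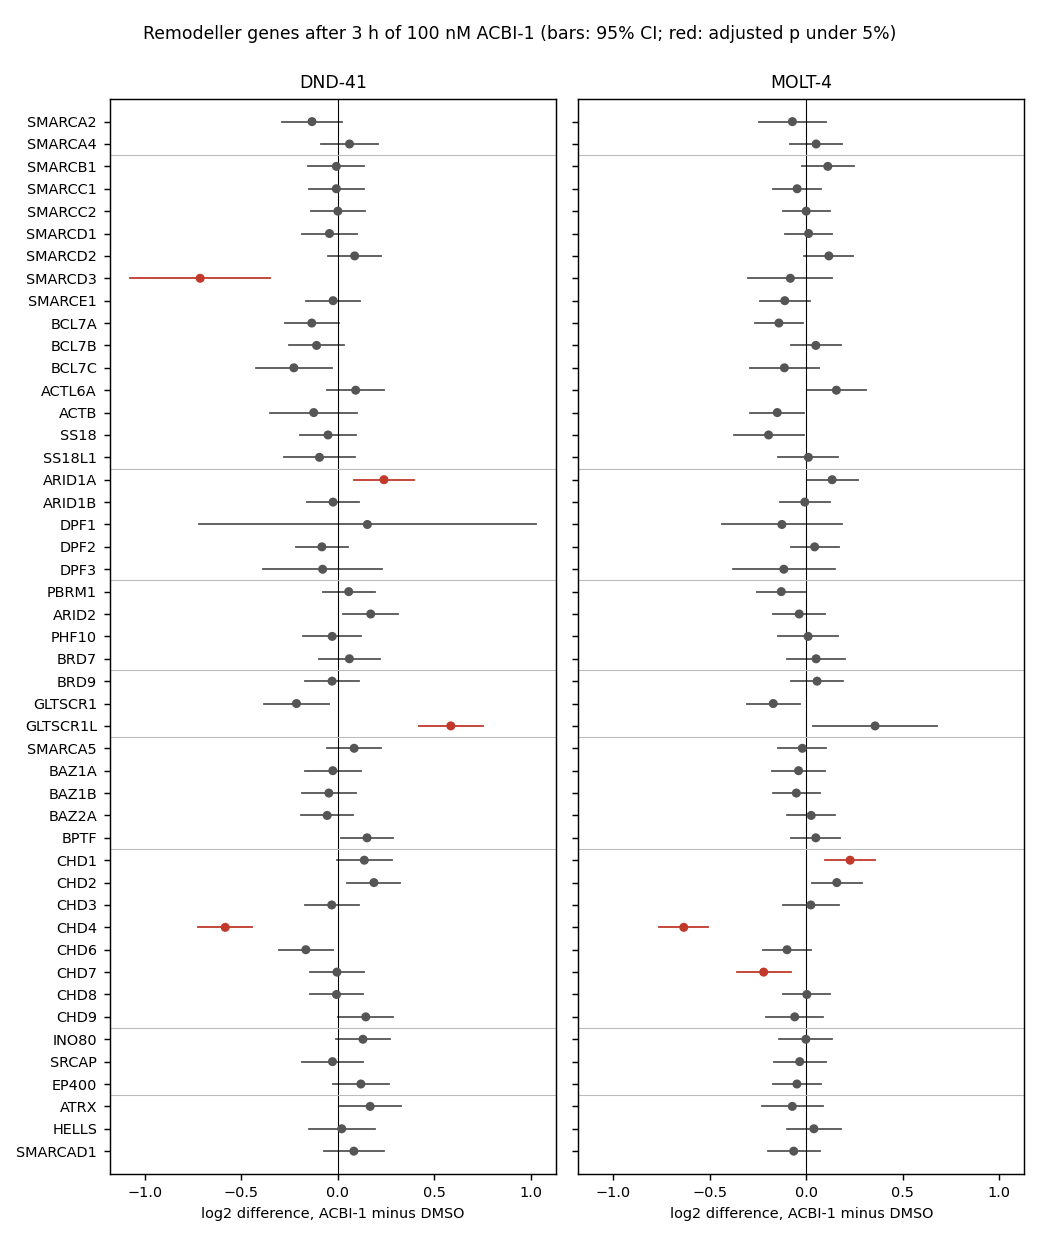
Log2 difference between ACBI-1 and DMSO (horizontal axis) for the 47 tested genes, grouped by complex, in DND-41 and MOLT-4. Points are estimates, bars are 95% intervals, red marks adjusted p under 5%, and CHD4 alone is red in both lines.

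The lists by complex are short, so few calls say little about them. The shares of all genes called were 9.83% in DND-41 and 10.8% in MOLT-4. Of the 14 tested genes listed as core or shared subunits, SMARCD3 was called in DND-41 (7.14%) and none in MOLT-4. Not every gene of this list belongs to all 3 forms of the complex. In DND-41 the other 13 lay between -0.23 (BCL7C) and 0.09 (ACTL6A). SMARCB1, SMARCC1, SMARCC2 and SMARCE1 differed by -0.01, -0.01, 0.00 and -0.02 in DND-41 and by 0.11, -0.05, 0.00 and -0.11 in MOLT-4. None of the 4 PBAF subunits (PBRM1, ARID2, PHF10, BRD7) was called in either line.

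None of the 5 tested ISWI genes passed in either line, beside 9.83% (DND-41) and 10.8% (MOLT-4) of all genes. Their differences lay between -0.06 (BAZ2A) and 0.15 (BPTF) in DND-41 and between -0.05 (BAZ1B) and 0.05 (BPTF) in MOLT-4. SMARCA5, the ISWI ATPase used in these cells, differed by 0.08 ± 0.07 and -0.02 ± 0.06. INO80, SRCAP and EP400, the ATPases that handle the variant histone H2A.Z, lay between -0.03 and 0.13 in DND-41 and between -0.05 and 0.00 in MOLT-4, with none called. ATRX, HELLS and SMARCAD1 were not called either.

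Genes that work beside the members were counted from a separate list of 61 tested in DND-41 and 60 in MOLT-4. In DND-41, 5 rose and 2 fell (11.5%, beside 9.83% of all genes), and in MOLT-4 2 rose and 3 fell (8.33%, beside 10.8%). Their median log2 differences were 0.02 and 0.01. Of the 12 further NuRD subunits, 1 fell and 0 rose in DND-41 (8.33%), and 2 fell and 0 rose in MOLT-4 (16.7%), against the same shares of all genes, with medians of -0.03 and -0.02. GATAD2A, the NuRD subunit that links CHD4 to the deacetylase part, fell in both lines. It stood at 209.5 and 235.1 CPM with ACBI-1 and 303.4 and 298.6 CPM with DMSO in DND-41, -0.42 ± 0.07 (adjusted p = 7.15e-05, edgeR).

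In MOLT-4 GATAD2A stood at 172.6 and 163.1 against 223.3 and 224.8 CPM, -0.43 ± 0.06 (adjusted p = 1.75e-05, edgeR). GATAD2B, its paralogue, which was picked out after its values were seen, was the other fall in MOLT-4, at -0.25 ± 0.06 (adjusted p = 0.0114). In DND-41 GATAD2B was lower by a like amount, -0.22 ± 0.07, and did not pass (adjusted p = 0.0505, edgeR). In the authors' deposited DESeq2 comparisons its adjusted p was 0.191 in DND-41 and 0.0389 in MOLT-4. Without the filter on low counts the GATAD2A calls were lost (0.131 and 0.0701), in fits where 2 and 39 genes passed. In the 3 fits that called 3, 0 and 0 genes GATAD2A was at -0.34 without the DND-41 ACBI-1 replicate 1 (0.113) and at -0.47 and -0.38 without the MOLT-4 ACBI-1 replicates 1 and 2 (0.271 and 0.156), and it passed without each of the other 5 libraries.

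SMARCAL1, an annealing helicase of stalled replication forks, rose in both lines. It went from 24.94 and 28.82 to 36.09 and 38.37 CPM in DND-41, 0.49 ± 0.09 (adjusted p = 0.000203, edgeR), and from 24.69 and 27.76 to 32.58 and 30.99 CPM in MOLT-4, 0.27 ± 0.09 (adjusted p = 0.0435). In MOLT-4 SMARCAL1 was not called by DESeq2 (0.259) or without DMSO replicate 1 (0.19; adjusted p = 0.312, edgeR), where 1430 genes passed. Without MOLT-4 ACBI-1 replicate 1 or 2, where 0 genes passed, it was at 0.23 and 0.31 (0.469 and 0.286). In DND-41 it was at 0.53 without ACBI-1 replicate 1 (0.165; 3 genes passed) and 0.44 without ACBI-1 replicate 2 (0.109; 177 genes passed). GATAD2B in MOLT-4 was not called without DMSO replicate 2 (-0.17; 0.198), where 1149 genes passed, and was at -0.205 and -0.28 (0.458 and 0.265) in the fits without an ACBI-1 replicate, where 0 genes passed.

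The next comparison was whether the lines responded differently. No member passed the interaction test of treatment and line, beside 0.641% of all 15604 genes tested. At an unadjusted p under 0.05 there were 2 (SMARCD3 and CHD7; 4.26%), beside 7.64% of all genes, and DESeq2 also called 0. The responses of SMARCD3 differed by 0.66 ± 0.20 (MOLT-4 minus DND-41; unadjusted p = 0.00279, adjusted p = 0.186, edgeR), and those of CHD7 by -0.19 ± 0.09 (unadjusted p = 0.0493, adjusted p = 0.652). Of the 47 tested in both lines, 28 (59.6%) had the same sign, beside 67.3% of all 12968 genes. Called in the same direction in both lines was 1 member (2.13%), beside 4.93% of all genes, and called in either line were 6 (12.8%), beside 15.9%.

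More members passed between the lines than after treatment. In DMSO, 37 of the 47 passed (21 higher and 16 lower in MOLT-4), 78.7% beside 66.1% of all 14984 genes tested (33.8% higher and 32.4% lower). The median SE was 0.0587 over the 47 and 0.103 over all genes, so members could pass at smaller differences. The higher share does not show that they differ more. Of the 47, 6 differed by at least 2-fold, beside 26.2% of all genes. With the GC and length trend removed the count was 35 and the split turned to 14 higher and 21 lower, with 28 of the 37 calls kept. The calls with large differences are the ones described here, and each kept its sign there.

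GLTSCR1L had the largest deficit in MOLT-4, at 4.691 and 5.221 CPM against 32.38 and 29.71 CPM in DND-41, a log2 difference of -2.64 ± 0.11 (adjusted p = 6.54e-10, edgeR). CHD3 stood at 53.61 and 51.33 CPM in MOLT-4 and 201.9 and 180.5 CPM in DND-41, -1.86 ± 0.07 (adjusted p = 1.67e-10). ACTB, the actin subunit of SWI/SNF and a cytoskeletal protein, stood at 2459 and 2330 against 6036 and 6193 CPM, -1.35 ± 0.07 (adjusted p = 6.56e-09). In all 3 the lines did not overlap.

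SMARCA2 was at 28.25 and 26.68 CPM in MOLT-4 and 55.64 and 64.04 CPM in DND-41, -1.12 ± 0.08 (adjusted p = 1.04e-07, edgeR). SS18, the subunit altered in synovial sarcoma, was at 38.51 and 32.31 against 66.97 and 64.99 CPM, -0.89 ± 0.08 (adjusted p = 8.88e-07). CHD9 was at 48.61 and 47.3 against 82.74 and 77.16 CPM, -0.73 ± 0.06 (adjusted p = 6.28e-07). These complete the 6 largest deficits in MOLT-4.

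Higher in MOLT-4 was first DPF1, a neuronal BAF subunit, with 125 and 121 counts against 15 and 10, or 6.444 and 6.255 against 0.739 and 0.497 CPM, a log2 difference of 3.35 ± 0.25 (adjusted p = 1.2e-07, edgeR). SMARCD3 was at 15 and 15.04 against 5.667 and 7.005 CPM, 1.25 ± 0.13 (adjusted p = 2.4e-06). Both are low in both lines. DPF3 was at 13.3 and 10.55 against 6.357 and 7.303 CPM, 0.81 ± 0.15 (adjusted p = 0.000339), a call lost without the DND-41 DMSO replicate 1 (adjusted p = 0.0748).

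HELLS, a remodeller that aids DNA methylation, was at 56.19 and 56.92 against 38.09 and 35.92 CPM, 0.62 ± 0.07 (adjusted p = 4.55e-06, edgeR). CHD1 was at 139.8 and 145.4 against 95.9 and 94 CPM, 0.59 ± 0.05 (adjusted p = 8.94e-07). BPTF, the reader subunit of the ISWI complex NURF, was at 259.8 and 283.7 against 186.8 and 176.5 CPM, 0.58 ± 0.06 (adjusted p = 2.68e-06). SMARCA4 was higher in MOLT-4 by 0.31 ± 0.06 (adjusted p = 0.000416), but by 0.07 (adjusted p = 0.31) with the GC and length trend removed.

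**Figure D3:**
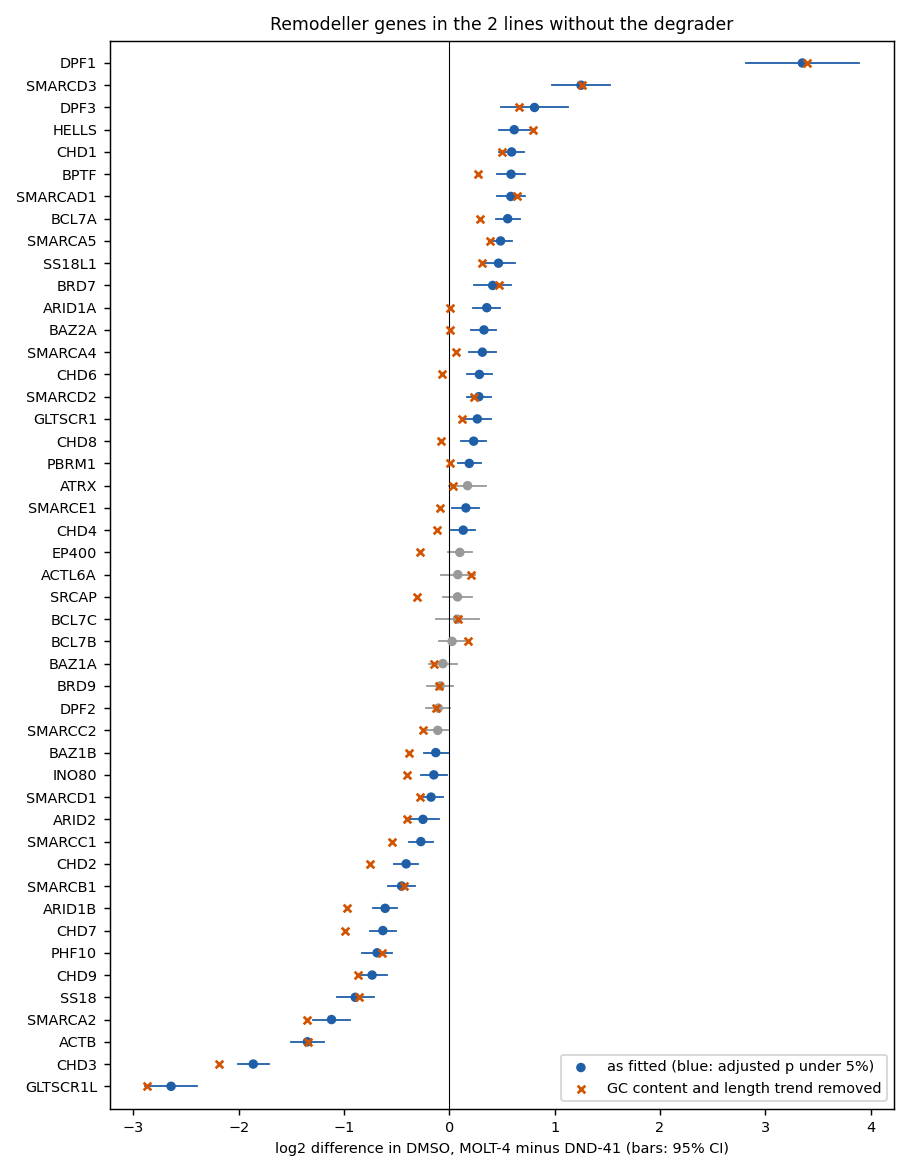
Log2 difference between MOLT-4 and DND-41 in DMSO for the 47 tested genes, sorted, with 95% intervals (bars) and, as crosses, the value with the GC content and length trend removed. GLTSCR1L and DPF1 lie farthest from 0, and genes near 0 move across it under the correction.

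Levels were compared between paralogues only per kilobase of transcript (RPKM), taking the transcript with the longest coding sequence. In DND-41 with DMSO the highest were ACTB (3183 ± 57.8 RPKM, SD, n = 2), BCL7B (152.7 ± 0.187), SMARCB1 (110.6 ± 5.89), SMARCD1 (88.8 ± 2.78) and SMARCA4 (82.4 ± 1.42). In MOLT-4 they were ACTB (1247 ± 47.5), BCL7B (155 ± 9.02), SMARCA4 (102.1 ± 5.48), ARID1A (91.3 ± 5.45) and SMARCB1 (80.5 ± 4.05). The spread of SMARCB1 and SMARCD1 (78.5 ± 1.59) overlapped in MOLT-4. GLTSCR1L (0.759 ± 0.0574), DPF3 (2.64 ± 0.431) and DPF1 (3.89 ± 0.0817) were the lowest of the tested genes there.

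SMARCA4 made up 89.0% ± 0.805 (SD, n = 2) of the summed SMARCA2 and SMARCA4 level in DND-41 with DMSO and 95.6% ± 0.055 in MOLT-4. Of the ARID subunits ARID1A held 66.2% ± 1.07 in DND-41 and 77.2% ± 0.619 in MOLT-4, and ARID1B held 18.6% and 11.1%. SMARCD1 and SMARCD2 shared the SMARCD level, at 61.0% and 36.9% in DND-41 and 52.0% and 43.0% in MOLT-4, with SMARCD3 at 2.18% ± 0.347 and 4.99% ± 0.019. DPF2 held 97.6% ± 0.097 and 91.4% ± 0.709 of the DPF level.

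SS18 and SS18L1 stood at 73.4% ± 1.79 and 26.6% in DND-41, but at 51.7% ± 3.34 and 48.3% in MOLT-4. SMARCC2 held 55.8% and 58.5% against SMARCC1, BCL7B 82.0% and 77.7% of the BCL7 level. ACTL6A and SMARCA5 held 99.9% and 99.8% of their pairs in the group where their share was lowest. These shares rest on 1 transcript model per gene, so a line that uses other transcripts would shift them.

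**Figure D4:**
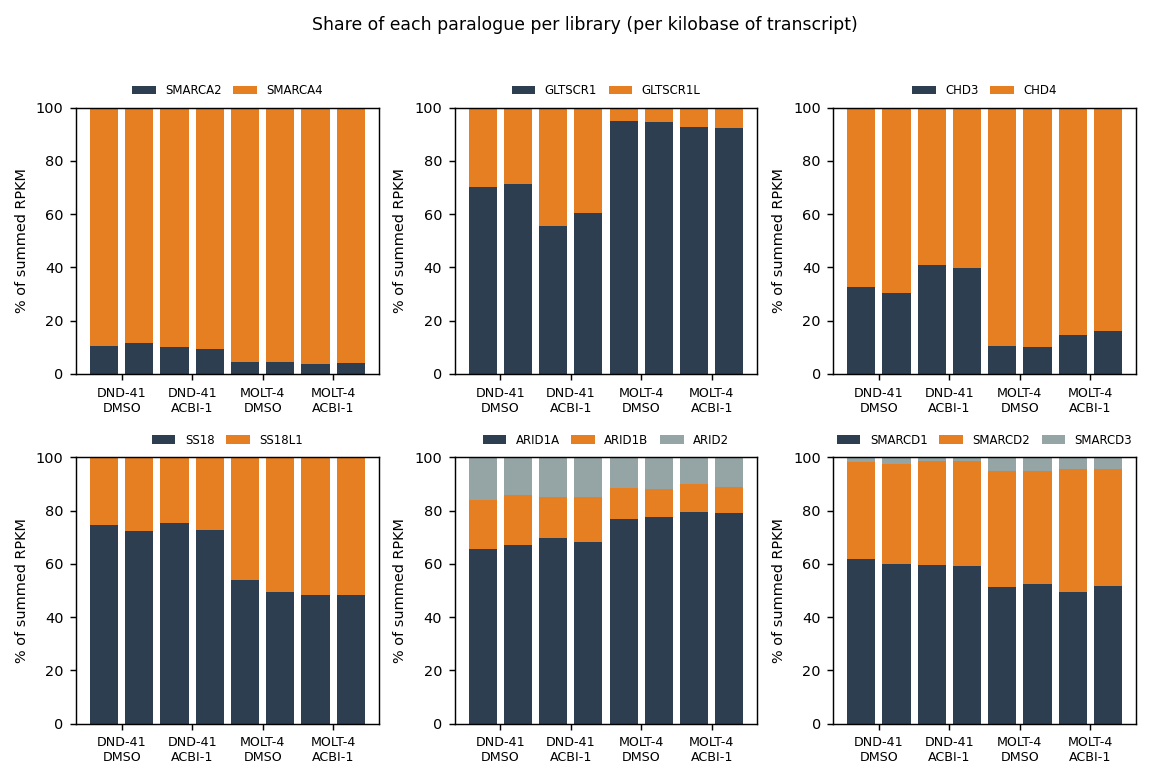
Percent of the summed RPKM of each paralogue set (vertical axis) in each of the 8 libraries, 2 bars per group. GLTSCR1L and CHD3 take a larger share in the ACBI-1 libraries of both lines, and SS18L1 takes a larger share in MOLT-4 than in DND-41. CHD4, the other part of its sum, fell, while CHD3 itself differed by a log2 of -0.03 in DND-41 and 0.02 in MOLT-4.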

How the data were processed

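RNA sequencing covered 8 libraries, 2 in each group, assigned from their titles. The deposited values are raw counts per gene in 1 table per line, per the file headers, with no normalization. The submitters' processing notes name STAR 2.5.2a, featureCounts, DESeq2 1.12.4 and hg19 without roles. Neither annotation nor strand setting is given in the sources used here, and overlapping or antisense genes, and close paralogues, may share reads. The authors also deposited, per the file headers, 1 comparison table per line with a mean normalized signal, log2 fold changes, a test score and p-values. Their headers do not state the sign. It followed ACBI-1 minus DMSO in DND-41 (correlation with the edgeR values of 1) and the opposite in MOLT-4 (-1).

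The test was the quasi-likelihood F-test of edgeR 4.0.16, run in R 4.3.3 with limma 3.58.1, after TMM scaling and the default low-count filter, with Benjamini-Hochberg adjustment over all genes tested, at 5%. A response was fitted on the 4 libraries of its line, the interaction on all 8, and the line difference on the 4 DMSO libraries. SE is the log2 difference divided by the root of F, and intervals are 95%. CPM used TMM over all 8 libraries, and RPKM divided CPM by the length of the GENCODE 29 transcript with the longest coding sequence. Symbols matched 53 gene identifiers, of which 4 had no reads. A count of 0 allows 3 reads, counting error only. No replicates agreed within sampling noise (chi-square per gene 3.19 to 17.2, the highest in DND-41 with ACBI-1). The test was also run on counts simulated with edgeR's own fitted dispersion. Such a run cannot show whether that dispersion holds for these libraries.

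Members and gene lists were chosen with earlier results of these data known. Genes named are the 3 targets, every member past 5% in a response or their difference, the 6 largest in each direction between lines, and paralogue sets. Outside the members, VHL and the pathway genes past 5% in both lines the same way are named. Alternatives were DESeq2 1.42.0, its size factors in edgeR, total-count scaling, no filter, a 1% threshold, a minimum fold of 1.5, a replicate block, all 8 libraries in one fit, MOLT-4 reads subtracted from 1 DND-41 library, and leaving out each library. A GC and length trend (6 degrees of freedom each) was added after seeing the data. Whether replicate numbers pair the samples is not stated.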

Additional observations from a re-analysis of the deposited data

How the results depend on the processing

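Leaving out 1 library at a time, the number of members called ranged from 0 to 3 in DND-41, from 0 to 3 in MOLT-4 and from 27 to 31 between the lines. The same fits called 3 to 632 genes of the whole table in DND-41 and 0 to 1430 in MOLT-4. With no filter on low counts 0 members were called in DND-41 and 1 in MOLT-4, where 2 and 39 genes of the whole table passed. At 1% 1 member was called in MOLT-4, beside 6.07% of all genes. Against a minimum fold of 1.5 there were 0 in DND-41, 0 in MOLT-4 and 8 between the lines (2 higher, 6 lower). Of all genes 0.25%, 0.511% and 29.8% were called against that fold. No setting run called a member in the difference of responses. With the GC and length trend removed, the line difference changed sign for SMARCE1 (-0.0868), CHD4 (-0.1203), CHD6 (-0.073), CHD8 (-0.0833), SRCAP (-0.3096) and EP400 (-0.2812), of which SRCAP and EP400 had not been called before. The cause was not tested.

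With the replicate number as a block, 10 members were called in DND-41 (5 higher, 5 lower) and 5 in MOLT-4 (2 higher, 3 lower), including all those called without it, beside 15.9% and 15.4% of all genes. With the block there were 34 between the lines and 0 in the difference of responses. Whether the numbers pair the samples is not stated. Replicate differences correlated by 0.042 between treatments in DND-41, 0.043 in MOLT-4 and -0.002 between the DMSO libraries of the lines. The correlations weigh all genes alike, also those with few reads, so low values cannot decide it. Depth limits SMARCD3 and DPF1 most, with 69 to 141 and 10 to 15 counts per DND-41 library.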
